A study of Mus musculus with 20 samples.

Results

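Aminoacyl-tRNA synthetases are the enzymes that join each amino acid to its transfer RNA before it enters the ribosome. The members were the rows of the deposited expression table whose gene symbol named a synthetase, 36 of 45700 rows. They comprised 20 enzymes or subunits of the cytosol and 16 enzymes of the mitochondrion, the latter with symbols that end in 2. Each of the 36 symbols was found once, each was above 0 in every library, and all 36 passed the filter for testing, a mean of at least 1 FPKM (sequenced fragments, scaled to gene length and to the size of the library) over the 20 libraries.

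The libraries came from brains of "Taiwanese" mice, a severe model of spinal muscular atrophy (SMA), all on a congenic FVB background. SMA mice were Smn-/-; SMN2tg/0, null for the mouse Smn gene and carrying a human SMN2 transgene, and controls were their heterozygous Smn-/+; SMN2tg/0 littermates, so both genotypes carried the transgene. Brains were taken at postnatal day 5 (early symptomatic, 2 libraries per genotype and fraction) and at postnatal day 7 (late symptomatic, 3 libraries per genotype and fraction). From each group RNA was sequenced both from all fractions of a sucrose gradient (total cytoplasmic RNA) and from its polysomal fractions only, which gave 8 groups and 20 libraries. The table holds FPKM and no counts, so the depth behind a single value is unknown and no counting interval is given. Stage cannot be told apart from the time at which the brains were processed.

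The members fall into a few families. Class I and class II enzymes have unrelated catalytic folds and attach the amino acid in different ways, and in animal cells several cytosolic enzymes (Dars, Eprs, Iars, Kars, Lars, Mars, Qars and Rars) are held in a multisynthetase complex. Nearly every mitochondrial enzyme has a nuclear gene of its own, while Gars and Kars each make both the cytosolic and the mitochondrial enzyme, and Eprs joins the glutamyl and prolyl activities in a single protein. Inherited mutations in several of these genes, among them Gars and Yars, cause peripheral neuropathies, and mutations in mitochondrial members cause brain diseases of childhood. Transcription of many cytosolic members is raised by ATF4, a factor made when amino acids are short, which acts on C/EBP-ATF sites near their start.

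Sequences near the start of some members hold such a site, and those of 4 are shown because the members are set side by side below. The C/EBP-ATF motif was searched as TGATGNAA on both strands in RefSeq promoter windows (GRCm38.p6), each of 300 bases from 250 before to 50 after the start. A window was matched for 27 members, and 5 of them held the motif (18.52%), all of them cytosolic enzymes. Of the 27025 genes with a window, 1219 held it (4.51%). The 30-base stretches follow, written 5′ to 3′ on the gene's own strand, with the motif or its reverse complement in capitals.
Gars, chr6:55037960-55037989, + strand: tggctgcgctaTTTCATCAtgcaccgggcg
Iars, chr13:49682126-49682155, + strand: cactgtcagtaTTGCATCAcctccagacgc
Tars, chr15:11399655-11399684, - strand: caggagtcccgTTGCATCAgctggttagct
Yars, chr4:129189895-129189924, + strand: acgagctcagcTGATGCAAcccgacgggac
The motif lies before the annotated start in Gars and Tars, and just after it in Iars and Yars. A match describes letters in a window and is not a measured binding site.

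For Lars2, the mitochondrial leucyl enzyme, the primer pair used in the study for its quantitative PCR is shown as well. Whether these sequences bear on its FPKM was not tested.
Lars2 forward: gagctgggattagaccgtcg
Lars2 reverse: ctgcggttcctctcgtactg
The primers were searched as exact matches in Gencode M21 transcripts only. Near matches, and ribosomal RNA absent from those transcripts, were not covered, so the search does not show that the pair is specific to Lars2. Among those transcripts both primers matched Lars2 alone. Both lie in the 3′ UTR, in exon 21 of 21, at chr9:123462092-123462111 and chr9:123462168-123462187 (GRCm38). On the transcript of 3894 bases with a 3′ UTR of 989 bases, the forward primer starts at base 3322. Stretches of 30 bases near the forward primer occur also in transcripts of 2 other genes, 29 of them in AA474408 (bases 3172 to 3313) and 23 in Gm15564 (bases 3278 to 3329). Those of AA474408 end before the primer, and the last of Gm15564 reach only into its first bases. AA474408 lay between 0.17 and 0.65 FPKM and Gm15564 between 0 and 1.03 FPKM over the 20 libraries.

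Smn1, the gene disrupted in SMA, was between 8.92 and 9.71 FPKM in the early control total libraries and between 9.55 and 10.09 FPKM in the early SMA total libraries. In the late ones it was between 13.56 and 16.70 against 11.94 and 17.49 FPKM. The SMA allele is known to lack a single exon near the 3′ end, and a value over the whole gene takes in the exons outside it. The value may also take in reads of the SMN2 transgene, which both genotypes carry. For both reasons it does not check the genotype labels. Brain markers were abundant. The summed FPKM of 5 neuronal markers (Tubb3, Snap25, Stmn2, Syt1 and Dcx, led by Stmn2) was 1896 ± 116 (SD, n = 2) in early control total RNA and 2824 ± 187 (SD, n = 3) in late control total RNA, and no neuronal, glial or vascular marker was at 0 in all libraries. Tubb3 was listed at 0 in both early control polysomal libraries and in no other.

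Some libraries stood apart. Late control polysomal library 2 held 3652 FPKM of Lars2, against 11.64 and 44.72 FPKM in the other two of its group. Early control polysomal library 1 had higher values than library 2 of its group in 18 of 20 cytosolic and 13 of 16 mitochondrial members, with median ratios of 1.21 and 1.26. Early SMA total library 1 and late SMA total library 1 also decided several counts.

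Transcripts of the cytosolic enzymes were more abundant than those of their mitochondrial counterparts. The highest cytosolic members by mean FPKM over the 20 libraries were Sars (92.8), Gars (75.4) and Nars (70.5), which charge serine, glycine and asparagine transfer RNAs, and the lowest were Vars (16.3), Tars (16.6) and Lars (19.5), for valine, threonine and leucine. Among mitochondrial members other than Lars2 the highest were Rars2 (16.4) and Yars2 (13.1), for arginine and tyrosine, and the lowest Ears2 (2.55), Sars2 (3.73) and Aars2 (4.08), for glutamate, serine and alanine. Sars stood at percentile 92.9 of the 15247 tested genes and Ears2 at percentile 15.4. Within a library the median of the cytosolic members was between 3.35 and 4.92 times that of the mitochondrial members without Lars2 at total RNA, and between 4.09 and 4.95 times at polysomal RNA.

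**Figure D1:**
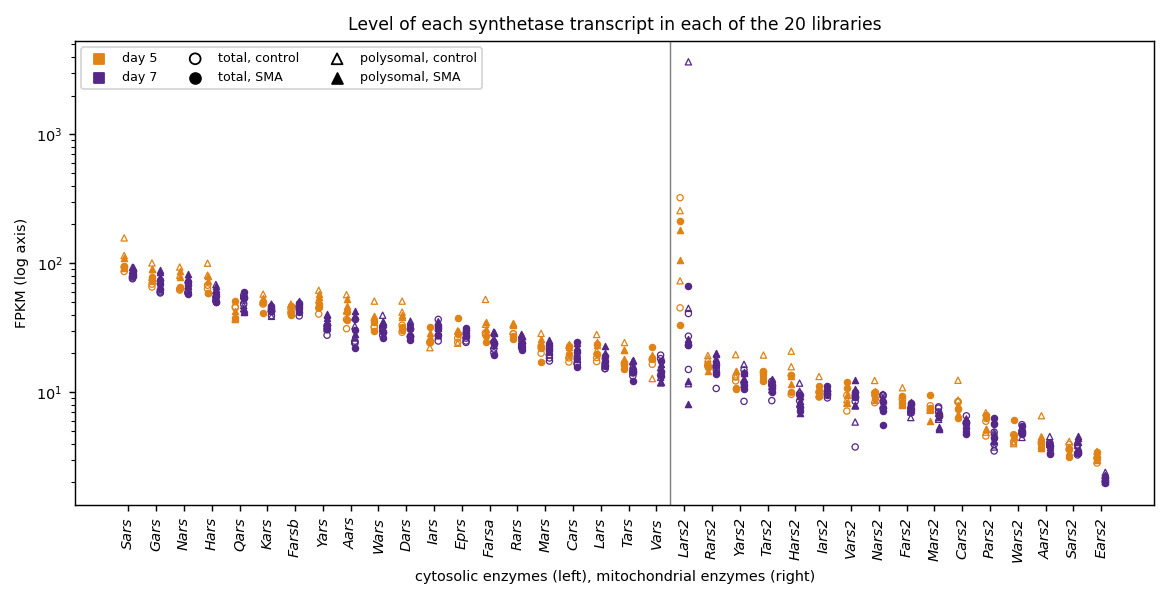
FPKM (log axis) of each of the 36 synthetase genes, with 20 points per gene, 1 per library. Colours give the postnatal day, open and filled symbols control and SMA, circles and triangles total and polysomal RNA. Cytosolic enzymes run from Sars (mean 92.8) to Vars (mean 16.3), and among mitochondrial enzymes Lars2 alone spreads from 8.03 to 3652 FPKM.

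Setting each cytosolic enzyme beside the mitochondrial enzyme for the same amino acid gave 17 pairs, with Eprs set against both Ears2 and Pars2 and both Phe-tRNA synthetase subunits (Farsa and Farsb) against Fars2. In 16 of the 17 pairs, all but Lars and Lars2, the cytosolic transcript was the higher in each of the 20 libraries. The ratio of mean FPKM in those 16 pairs ran from 1.34 (Tars to Tars2) to 24.9 (Sars to Sars2), with a median of 4.53. Rars to Rars2 (1.66) and Vars to Vars2 (1.82) were the next lowest ratios, and Eprs to Ears2 (11.2) the next highest. Gars and Kars, which have no separate mitochondrial partner, had means of 75.4 and 46.6 FPKM.

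The members could not all be measured apart from their neighbours. In 18 of 36 the deposited locus also held another gene, and in 8 another protein-coding gene. Hars and Hars2 share 1 locus, Mars shares its locus on chromosome 10 (127289695 to 127311786) with Ddit3, Farsb with Sgpp2, Cars2 with Carkd, Ears2 with Ubfd1, Iars2 with Rab3gap2 and Yars with C77080. The quantification ran at default settings, and how strand was used is not stated for it, so values of overlapping genes are uncertain.

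Lars2 was the exception to the small spread of the class. Lars2 (ENSMUSG00000035202 in the annotation; chr9:123366939-123462664, + strand) charges the mitochondrial leucine transfer RNA, and mutations in it are known for hearing loss with ovarian failure. In early total RNA it was 45.10 and 322.54 FPKM in control against 32.94 and 212.71 FPKM in SMA. In early polysomal RNA it was 73.12 and 256.11 FPKM in control against 105.46 and 179.75 FPKM in SMA. The second library of every early group was the higher, and the genotypes overlapped in both fractions.

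At day 7 Lars2 was lower in most libraries. It was 27.19, 40.75 and 15.01 FPKM in control total RNA and 66.69, 23.04 and 23.09 FPKM in SMA total RNA. In polysomal RNA it was 11.64, 3652 and 44.72 FPKM in control against 25.76, 12.22 and 8.03 FPKM in SMA. The late control polysomal mean was 1236 ± 2092 FPKM (SD, n = 3), and 28.18 FPKM without library 2. Over all libraries the highest value was 455 times the lowest.

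The pooled spread of Lars2 within groups (the SD of log2 values) was 2.06, at percentile 95.9 of the tested genes, whose median was 0.16. In the other 35 members it lay between 0.06 and 0.36, with a median of 0.12 and the highest value in Vars2. Lars2 made up from 6.22% to 97.03% of the summed FPKM of the 16 mitochondrial members, so it decides any sum over them. In late control polysomal library 2 it was 0.567% of the FPKM of all genes. No comparison of Lars2 between genotypes, fractions or stages passed the test, and its values are given here as levels only.

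**Figure D2:**
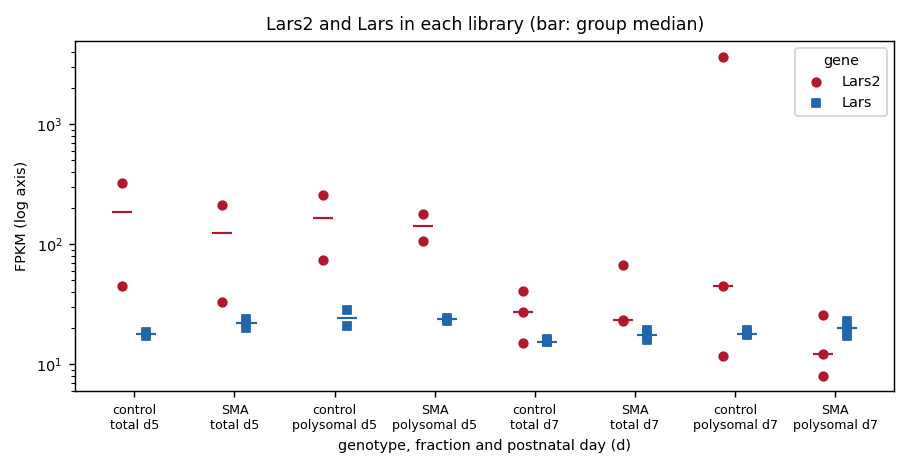
FPKM (log axis) of Lars2 (circles) and of its cytosolic counterpart Lars (squares) in each library of the 8 groups (d, postnatal day), with a bar at the group median. Lars2 runs from 11.64 to 3652 FPKM within late control polysomal RNA, while the values of Lars lie close together in each group.

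Values of ribosomal RNA also varied between libraries. Gm26917, a noncoding locus set beside them here, ranged from 3.89 to 74.51 FPKM, and was 4.28 FPKM in late control polysomal library 2, where Lars2 was highest. The mitochondrial ribosomal RNA mt-Rnr1 was listed at 14662 FPKM in that library, at 11210 and 11267 FPKM in the other two of its group and at 0 in the other 9 late libraries. In the early libraries it lay between 35.47 and 828.2 FPKM. Whether any of these values has a part in those of Lars2 was not tested.

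Polysomal RNA was compared with total RNA, which itself includes the polysomal fractions. FPKM is scaled within each library, so a change gives the enrichment of a transcript relative to others and not the amount carried by ribosomes. Between 5 and 12 of the 20 cytosolic members were called higher in polysomal RNA in the 4 groups of genotype and stage, and between 0 and 2 of the 16 mitochondrial members. In late control brains, where 28.7% of all tested genes were called at an unadjusted p under 0.05, 11 of 20 cytosolic members were higher and 0 lower, and 1 of 16 mitochondrial members was higher and 1 lower. The background was 17% of genes called higher and 11.6% called lower. The median log2 change (polysomal minus total) was 0.22 for the cytosolic members, 0.08 for the mitochondrial members without Lars2 and 0.05 for all tested genes.

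Dars, the aspartyl enzyme of the multisynthetase complex, was at 26.84, 26.74 and 27.21 FPKM in late control total RNA and at 32.52, 35.54 and 34.38 FPKM in polysomal RNA. All polysomal values lay above all total values, and the log2 change was 0.34 ± 0.06 (SE; limma, adjusted p = 0.00834). Gars rose from 59.80, 58.82 and 61.01 FPKM in total RNA to 76.22, 72.98 and 73.54 FPKM in polysomal RNA, a log2 change of 0.31 ± 0.06 (SE; limma, adjusted p = 0.0114). Rars, Hars and Wars (arginine, histidine and tryptophan) also passed with limma's adjusted p, with log2 changes of 0.25, 0.26 and 0.26.

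Mars2, the mitochondrial methionyl enzyme, went the other way. It was 7.70, 7.52 and 7.03 FPKM in late control total RNA and 6.16, 6.88 and 6.36 FPKM in polysomal RNA, without overlap, a log2 change of -0.20 ± 0.06 (SE; limma, adjusted p = 0.0491). Without library number 1 of both fractions the change was -0.13 and was not called (limma, unadjusted p = 0.0827). Without number 2, which includes the library of highest Lars2, 10 members were called in place of 13. In all, 7 of the 13 members called in late controls also passed after Benjamini-Hochberg adjustment over all tested genes, beside 13.6% of all genes. Rars2, at 0.33 ± 0.14 the only mitochondrial member called higher, was not called without control number 1 (log2 change 0.11) or number 2 (0.40), Nars not without number 1 or number 2 (0.25 and 0.26), and Tars not without number 2 (0.22).

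**Figure D3:**
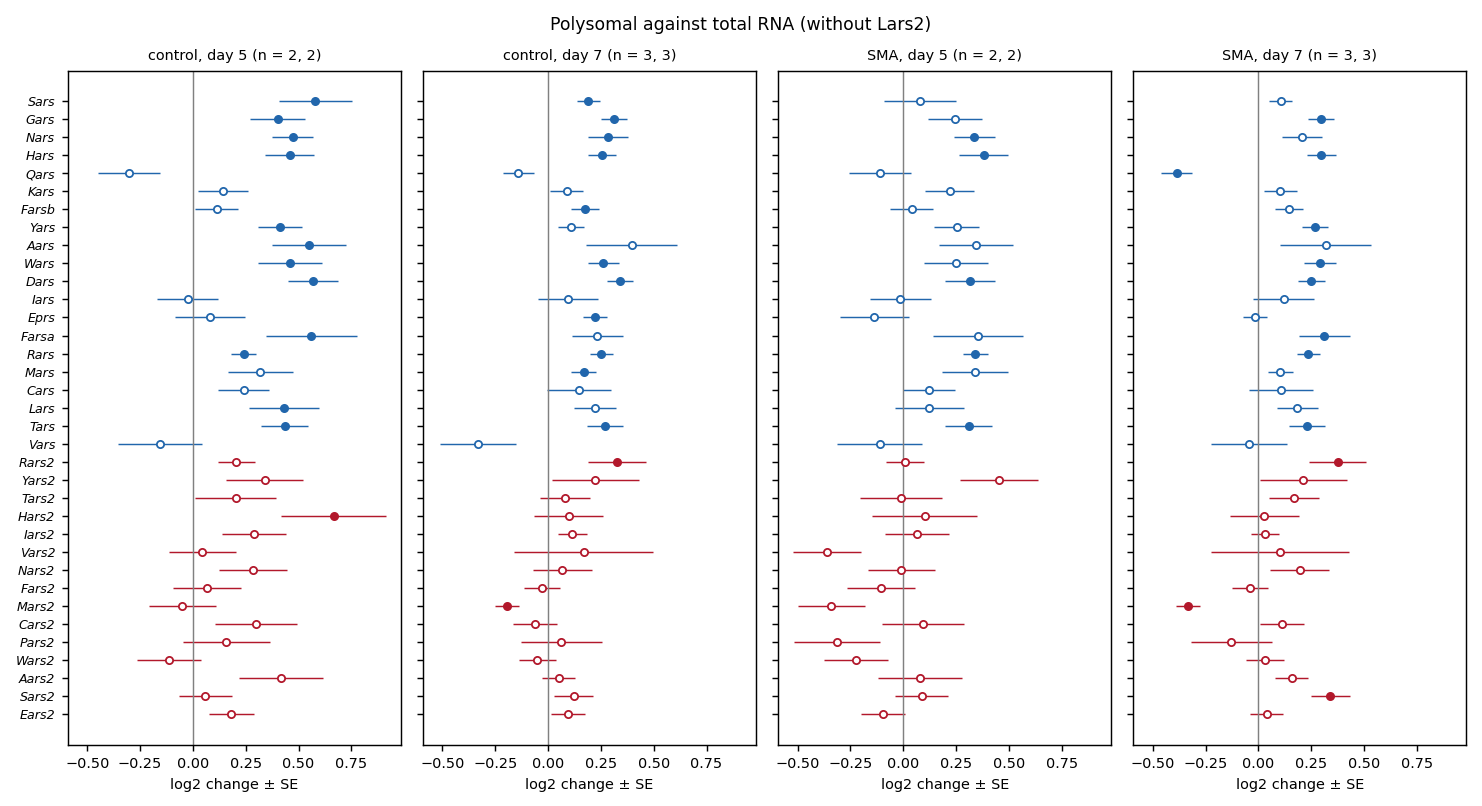
Log2 change of FPKM from total to polysomal RNA with its SE (limma) for 35 members without Lars2, in 4 panels by genotype and day (n, libraries per fraction). Blue marks cytosolic and red mitochondrial enzymes, and filled points were called at an unadjusted p under 0.05. Cytosolic members lie mostly to the right of 0 in each panel, and Qars and Mars2 to the left in the late SMA panel.

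In late SMA brains 8 of 20 cytosolic members were higher and 1 lower, and 2 of 16 mitochondrial members were higher and 1 lower, against 17.8% of all tested genes called higher and 12.4% called lower (30.2% in either direction). The median log2 change was 0.20 for cytosolic members, 0.10 for mitochondrial members without Lars2 and 0.05 for all tested genes. Of the 12 members called, 9 passed after adjustment, beside 15.3% of all genes. Gars was 63.14, 69.25 and 74.10 FPKM in total RNA and 78.67, 85.53 and 89.29 FPKM in polysomal RNA, a log2 change of 0.30 ± 0.06 (SE; limma, adjusted p = 0.0128). Hars, Wars, Yars and Dars rose by 0.30, 0.29, 0.27 and 0.25 on the log2 scale, and Sars2 by 0.34 ± 0.09 (SE; limma, adjusted p = 0.0381).

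Qars, the glutaminyl enzyme, was the cytosolic member that fell. It was 54.85, 53.78 and 59.83 FPKM in late SMA total RNA and 42.85, 41.79 and 44.14 FPKM in polysomal RNA, and the fractions did not overlap. The log2 change was -0.39 ± 0.07 (SE; limma, adjusted p = 0.00909). Mars2 fell by 0.33 on the log2 scale (limma, adjusted p = 0.00494), from 6.56, 6.80 and 6.52 FPKM to 5.15, 5.24 and 5.33 FPKM. Rars2 (0.38) was not called without SMA number 2 (0.33) or number 3 (0.38), and Farsa (0.31) not without any 1 of the 3 numbers (0.28 to 0.33).

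At day 5 the comparison rested on 2 libraries per group. In control brains 12 of 20 cytosolic members and 1 of 16 mitochondrial members (Hars2) were higher in polysomal RNA and 0 lower, against 14.4% of all tested genes called higher and 13.3% called lower (27.7% in either direction). The cytosolic median was 0.41, against 0.20 for mitochondrial members without Lars2 and 0.02 for all tested genes, and 0 members passed after adjustment, beside 2.82% of all genes. The largest changes among cytosolic members were those of Sars (0.58 ± 0.17 SE), from 93.55 and 86.37 to 157.31 and 114.83 FPKM, and of Dars (0.57 ± 0.12 SE), from 29.16 and 33.10 to 50.88 and 41.79 FPKM. Nars, Hars and Wars rose by 0.47, 0.46 and 0.46, Aars by 0.55 and Farsa by 0.56 on the log2 scale. Without library number 1, which includes the high polysomal library, the cytosolic median was 0.20 and that of all 16 mitochondrial members 0.02 (0.19 with it), 3 members were called in place of 13, Dars, Hars and Nars kept their call, and Sars (0.41), Aars (0.46), Farsa (0.26), Wars (0.24) and Hars2 (0.67 with and 0.22 without it) did not. The remaining library of each group was then assumed to vary like the SMA libraries.

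In early SMA brains 5 members were higher and 0 lower, all cytosolic, against 7.9% of all tested genes called higher and 9.77% called lower (17.7% in either direction), and 0 passed after adjustment, beside 0.925% of all genes. They were Hars (0.38), Rars (0.34), Nars (0.34), Dars (0.32) and Tars (0.31). Rars was 27.33 and 26.07 FPKM in total RNA and 34.67 and 33.02 FPKM in polysomal RNA, and it was the one that kept its call when either SMA number was left out. Without SMA number 1 or number 2, 2 and 3 members were called. Dars, Hars, Nars and Tars lost theirs without number 1, at 0.32, 0.32, 0.26 and 0.14, and Dars, Hars and Nars without number 2 as well, at 0.31, 0.44 and 0.41.

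Across the 4 genotype and stage groups, Dars, Hars, Rars and Tars were called higher in polysomal RNA in all 4, against 3.21% of all tested genes (490), and 0 mitochondrial members were. Gars, Nars and Wars were called higher in 3 of 4 groups. Mars2 was called lower in both late groups and Qars in late SMA brains. As given above, the early control call of Dars and Hars was kept without either number, while those of Rars and Tars were lost without control number 1, and the early SMA calls of Dars, Hars and Tars were lost without SMA number 1.

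Day 7 was compared with day 5 within each genotype and fraction. Among the members called, most were lower at day 7. In control total RNA 12 members were lower and 0 higher, against 19.1% of all tested genes called lower and 18.6% called higher (37.8% in either direction), with 8 of them cytosolic and 4 mitochondrial. The median log2 change (day 7 minus day 5) was -0.20 for cytosolic members, -0.24 for mitochondrial members without Lars2 and -0.03 for all tested genes. After adjustment 7 members passed, beside 23.1% of all genes. Cell type markers differed between the stages too. In control total RNA the summed FPKM went from 1896 to 2824 for neurons, from 1652 to 1274 for astrocytes and radial glia, from 58.9 to 38.8 for endothelium and from 732.5 to 385.9 for choroid plexus, and their part in the changes of the members was not tested.

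Yars, the tyrosyl enzyme, fell in all 4 comparisons. It was 40.38 and 44.89 FPKM at day 5 and 32.71, 30.52 and 27.65 FPKM at day 7 in control total RNA, a log2 change of -0.49 ± 0.08 (SE; limma, adjusted p = 0.00699). In control polysomal RNA it was 61.78 and 51.99 FPKM and then 33.82, 31.12 and 32.86 FPKM, a change of -0.80 ± 0.08 (SE; limma, adjusted p = 0.000907). In SMA brains it fell by 0.54 in total RNA and by 0.52 in polysomal RNA on the log2 scale (limma, adjusted p = 0.00465 and 0.0059), and the stages did not overlap in any of the 4.

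Ears2, the mitochondrial glutamyl enzyme, behaved alike. It was 2.82 and 3.08 FPKM at day 5 and 2.16, 2.03 and 2.02 FPKM at day 7 in control total RNA, a log2 change of -0.49 ± 0.09 (SE; limma, adjusted p = 0.0108). It fell by 0.63 in SMA total RNA, by 0.58 in control polysomal RNA and by 0.50 in SMA polysomal RNA on the log2 scale (limma, adjusted p = 0.00419, 0.0044 and 0.0119). Hars and Rars were the other members called lower in all 4 comparisons, which 7.24% of all tested genes were (1104). The Hars call in SMA polysomal RNA was lost without any 1 of 4 of the 5 libraries (-0.21 to -0.33). Yars and Ears2 kept their call in all 4 when any single library was left out.

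**Figure D4:**
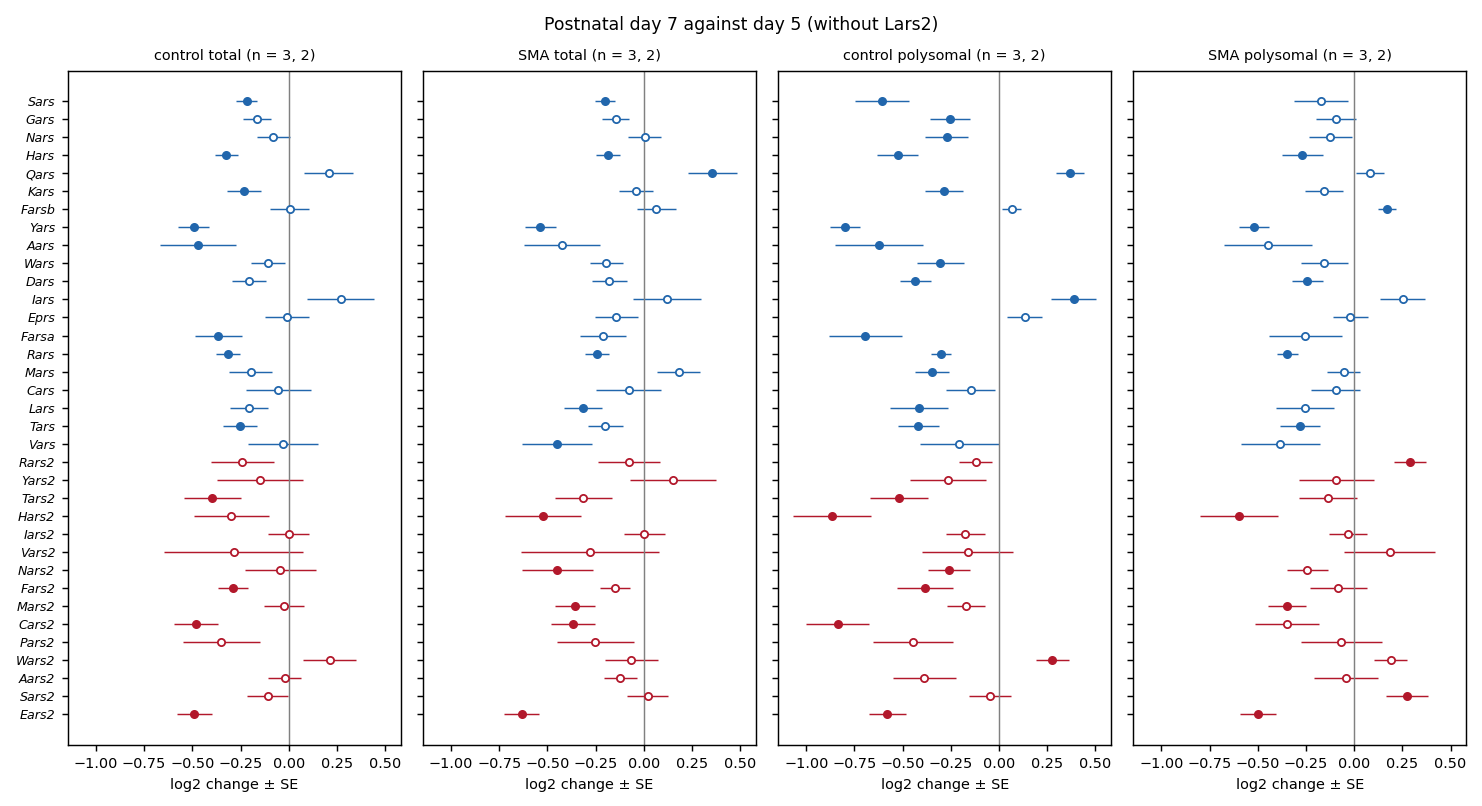
Log2 change of FPKM from postnatal day 5 to day 7 with its SE (limma) for 35 members without Lars2, in 4 panels by genotype and fraction (n, libraries at day 7 and at day 5). Blue marks cytosolic and red mitochondrial enzymes, and filled points were called at an unadjusted p under 0.05. Most points lie to the left of 0, with Yars and Ears2 filled in each panel and Qars to the right in SMA total and control polysomal RNA.

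In SMA total RNA 11 members were lower and Qars was higher, against 21.9% of all tested genes called lower and 19.8% called higher (41.6% in either direction), and 7 passed after adjustment, beside 27.7% of all genes. Qars was 37.74 and 50.92 FPKM at day 5 and 54.85, 53.78 and 59.83 FPKM at day 7, a change of 0.35 ± 0.13 (SE), and it was not called without early SMA library 1 (0.14) or late SMA library 3 (0.31). The count fell to 6 without early SMA library 1, where Hars2 (-0.30), Vars (-0.31), Nars2 (-0.38), Mars2 (-0.19) and Lars (-0.19) were no longer called. In control total RNA the count fell to 7 without early control library 2. Median changes in SMA total RNA were -0.18 for cytosolic members, -0.25 for mitochondrial members without Lars2 and -0.04 for all tested genes.

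Control polysomal RNA had the most calls, with 20 members lower and 3 higher, against 26% of all tested genes called lower and 23.5% called higher (49.5% in either direction), and 15 passed after adjustment, beside 39.7% of all genes. Hars2, the mitochondrial histidyl enzyme, was 20.81 and 15.77 FPKM at day 5 and 10.18, 11.76 and 8.11 FPKM at day 7, a change of -0.86 ± 0.20 (SE; limma, adjusted p = 0.0149). Cars2 fell by 0.84, Farsa by 0.69, Sars by 0.61 and Hars by 0.53 on the log2 scale. Qars (0.37 ± 0.07), Iars (0.39 ± 0.12) and Wars2 (0.28 ± 0.08) were higher at day 7, the last 2 of these not without early control polysomal library 2 (0.28 and 0.25). With the high early library 1 left out, 16 members were called and the cytosolic median was -0.19 (-0.30 with it), and Hars2, Cars2, Yars, Farsa, Sars, Ears2, Hars and Qars kept their calls when any single library was left out.

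In SMA polysomal RNA 8 members were lower and 3 higher, against 19.4% of all tested genes called lower and 20.8% called higher (40.3% in either direction), and 6 passed after adjustment, beside 25.8% of all genes. Rars2 (0.29 ± 0.08), Sars2 (0.27 ± 0.11) and Farsb (0.17 ± 0.05) were higher. Rars was 34.67 and 33.02 FPKM at day 5 and 27.45, 25.19 and 27.22 FPKM at day 7, a change of -0.35 ± 0.05 (SE; limma, adjusted p = 0.00618). Without early SMA polysomal library 1 the count was 5, and Rars2 (0.18), Sars2 (0.22), Tars (-0.17), Hars (-0.21), Dars (-0.21), Mars2 (-0.19) and Hars2 (-0.50) were no longer called. Sars2 was lost without any 1 of 4 of the 5 libraries (0.22 to 0.33), and Farsb without early library 2 (0.14).

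SMA was compared with control within each stage and fraction. At day 5 no member passed the test. In early total RNA 0 of 36 members were called by limma at an unadjusted p under 0.05, against 8.25% of all tested genes (4.36% higher and 3.89% lower), and in early polysomal RNA 0 of 36, against 12.5% (5.65% higher and 6.82% lower). None passed after adjustment either, as 0.164% and 0.649% of all tested genes did. The median log2 change (SMA minus control) was 0.04 for cytosolic members and 0.03 for mitochondrial members without Lars2 in total RNA, and -0.03 and -0.17 in polysomal RNA, beside 0.01 and -0.01 for all tested genes. Across all genes the early change followed transcript length, with a Spearman rho of 0.393 in total and 0.310 in polysomal RNA. Genes are not independent replicates. Over the 36 members rho was 0.517 and 0.258.

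The named members show how the early genotypes lay. Gars was 65.41 and 68.86 FPKM in control against 78.68 and 73.41 FPKM in SMA total RNA. Eprs was 24.38 and 26.24 FPKM in control against 37.38 and 28.51 FPKM in SMA total RNA, and Kars 48.22 and 49.39 against 40.90 and 49.69 FPKM. The SMA values of Gars and Eprs lay above those of both controls without passing the test, and those of Kars overlapped. Leaving out a library changed the counts, and the share of all tested genes called in such fits is not given. The remaining library was then assumed to vary like the other genotype. Without early control polysomal library 1 the cytosolic median in polysomal RNA was 0.05 in place of -0.03. That of all 16 mitochondrial members was -0.07 in place of -0.15.

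**Figure D5:**
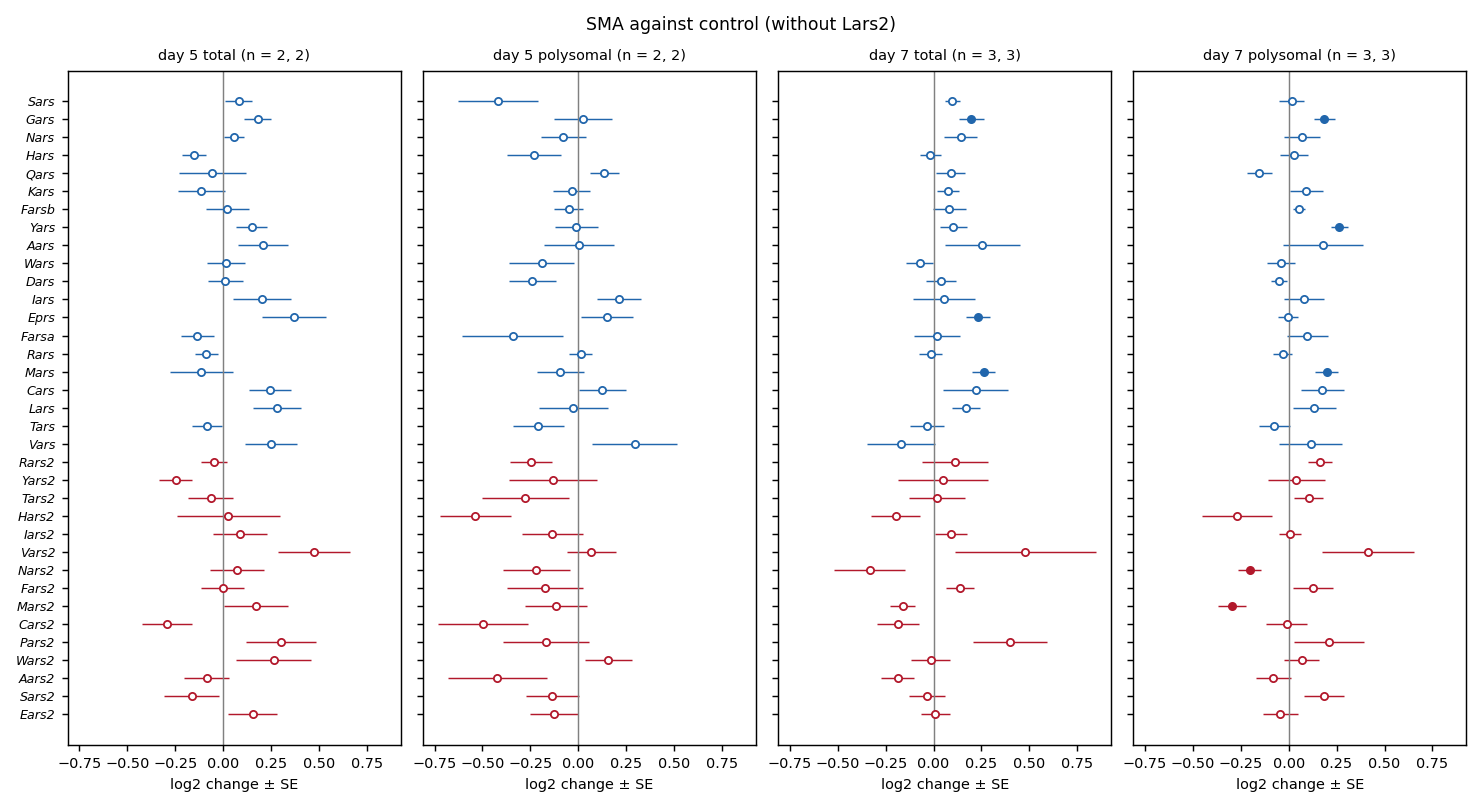
Log2 change of FPKM from control to SMA with its SE (limma) for 35 members without Lars2, in 4 panels by day and fraction (n, libraries per genotype). Blue marks cytosolic and red mitochondrial enzymes, and filled points were called at an unadjusted p under 0.05. No point is filled at day 5, while Mars, Eprs and Gars at day 7 total and Yars, Mars, Gars, Mars2 and Nars2 at day 7 polysomal are filled.

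At day 7 the share of members called with genotype was near that of all tested genes. In late total RNA 3 of 36 members were called higher and 0 lower, all cytosolic, against 4.84% of all tested genes called higher and 4.7% called lower (9.54% in either direction). Mars, the cytosolic methionyl enzyme of the multisynthetase complex, was 19.46, 18.42 and 17.45 FPKM in control against 21.25, 23.31 and 21.87 FPKM in SMA, a log2 change of 0.26 ± 0.06 (SE; limma, adjusted p = 0.323). Eprs was 24.92, 26.25 and 24.32 FPKM in control against 27.48, 30.11 and 31.26 FPKM in SMA, a change of 0.23 ± 0.06 (SE; limma, adjusted p = 0.365). Gars was 59.80, 58.82 and 61.01 FPKM in control against 63.14, 69.25 and 74.10 FPKM in SMA, a change of 0.20 ± 0.06 (SE; limma, adjusted p = 0.45). In each of the 3 every SMA value lay above every control value. The genotypes did not overlap in 4 members with SMA higher and 2 with SMA lower, against 7.63% and 7.37% of all tested genes (15% in all).

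The sizes were small, the largest of them 0.26 on the log2 scale, and none of the 3 passed after adjustment, as 0.111% of all tested genes did. The median log2 change was 0.09 for cytosolic members, 0.01 for mitochondrial members without Lars2 and 0.00 for all tested genes. Mars and Eprs kept their call when any single library was left out, while Gars lost it without control library 1, control library 2 or SMA library 2 (log2 change 0.20, 0.19 and 0.19). Without SMA library 1 the count rose to 8, and the share of all tested genes called in that fit is not given. That library was at or below the controls for Aars (21.95 FPKM against 23.94 to 24.87 FPKM in control), while the other 2 SMA libraries were at 30.18 and 37.07 FPKM. Cars was alike, at 15.81 FPKM in SMA library 1 and at 20.49 and 24.51 FPKM in the other two, with controls at 18.32, 16.56 and 16.55 FPKM.

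In late polysomal RNA 3 members were higher and 2 lower in SMA, against 5.35% of all tested genes called higher and 5.38% called lower (10.7% in either direction). The 3 that rose were cytosolic and the 2 that fell mitochondrial. Yars was 33.82, 31.12 and 32.86 FPKM in control against 39.71, 37.69 and 40.11 FPKM in SMA, a log2 change of 0.26 ± 0.05 (SE; limma, adjusted p = 0.204). Mars was 20.84, 20.90 and 20.39 FPKM in control against 22.04, 24.09 and 25.32 FPKM in SMA (0.20 ± 0.06 SE). Gars was 76.22, 72.98 and 73.54 FPKM in control against 78.67, 85.53 and 89.29 FPKM in SMA (0.18 ± 0.05 SE). The genotypes did not overlap in any of the 3.

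Mars2 was 6.16, 6.88 and 6.36 FPKM in late control polysomal RNA and 5.15, 5.24 and 5.33 FPKM in SMA, a log2 change of -0.30 ± 0.07 (SE; limma, adjusted p = 0.301). Nars2, the mitochondrial asparaginyl enzyme, was 9.64, 8.86 and 9.08 FPKM in control against 7.90, 7.94 and 8.06 FPKM in SMA, a change of -0.20 ± 0.06 (SE; limma, adjusted p = 0.359). For both, every SMA value was below every control value, and none of the 5 members passed after adjustment, as 0.0918% of all tested genes did. The genotypes did not overlap in 3 members with SMA higher and 3 with SMA lower, against 7.86% and 8.24% of all tested genes (16.1% in all). Yars and Mars2 kept their call when any single library was left out. Mars lost it without control library 3 or SMA library 2 (0.19 and 0.19), Gars without control library 2, control library 3 or SMA library 2 (0.17, 0.18 and 0.17), and Nars2 without SMA library 1 or 2 (-0.20 and -0.20), and the count was 2 without SMA library 2.

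The named members that were not called lay as follows at day 7. Kars was 42.34, 39.23 and 43.07 FPKM in control against 42.29, 42.61 and 46.64 FPKM in SMA total RNA, and 46.03, 38.76 and 48.22 against 46.48, 47.54 and 47.23 FPKM in polysomal RNA. Eprs was 30.68, 29.71 and 27.74 FPKM in control against 28.31, 29.48 and 30.11 FPKM in SMA polysomal RNA. The genotypes overlapped in each of these. Of the 8 multisynthetase complex members, 2 were called higher in late total RNA and 1 in late polysomal RNA, with medians of 0.08 and 0.04, beside 4.84% and 5.35% of all tested genes called higher.

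Markers of other cell types also differed between the genotypes. The summed FPKM of 3 endothelial markers (Cldn5, Pecam1 and Flt1, led by Cldn5) was 38.84 ± 5.15 in late control and 20.59 ± 1.46 in late SMA total RNA (SD, n = 3 each), and 58.95 ± 5.92 against 25.84 ± 0.283 at day 5 (SD, n = 2 each). The choroid plexus markers Ttr and Kcnj13, led by Ttr, summed to 385.9 ± 17.1 in late control and 711.1 ± 87.1 in late SMA total RNA, and to 511.6 ± 54.2 and 965.4 ± 140.5 in late polysomal RNA (SD, n = 3 each). At day 5 they summed to 732.5 ± 32.0 in control and 587.5 ± 272.1 in SMA total RNA, and to 968.6 ± 14.2 and 978.1 ± 85.6 in polysomal RNA (SD, n = 2 each), without that difference. The mean summed FPKM of the 4 astrocyte and radial glia markers, led by Fabp7, was lower in SMA in every comparison. They summed to 1274 ± 163 in control and 1050 ± 48.3 in SMA in late total RNA, and to 1650 ± 167 and 1299 ± 84.7 in late polysomal RNA (SD, n = 3 each). At day 5 the sums were 1652 ± 19.7 and 1153 ± 129 in total RNA, and 2558 ± 475 and 1637 ± 24.1 in polysomal RNA (SD, n = 2 each). The part of these cell types in the changes of the members was not tested, and in bulk tissue fewer cells of a type and less RNA per cell cannot be told apart.

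Translation efficiency (TE) is the polysomal over the total value, and its change with genotype was tested as the interaction of genotype and fraction. At day 5, 0 of 36 members were called by limma at an unadjusted p under 0.05, against 2.32% of all tested genes (1.26% higher and 1.06% lower). The early median was -0.13 for cytosolic and -0.22 for all 16 mitochondrial members, and without control number 1 it was 0.04 and -0.11, so the cytosolic direction rests on that number. At day 7, 2 members were lower in SMA and 0 higher, against 0.977% of all tested genes called lower and 1.09% called higher (2.07% in either direction). Both belong to the multisynthetase complex, and neither passed after adjustment, as 0.0394% of all tested genes did at day 7 and 0.617% at day 5.

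Qars TE fell by 0.24 on the log2 scale (± 0.10 SE; limma, adjusted p = 1). Its polysomal values were 47.01, 51.97 and 44.51 FPKM in control against 42.85, 41.79 and 44.14 FPKM in SMA, while its total values were 56.33, 48.06 and 53.92 FPKM in control against 54.85, 53.78 and 59.83 FPKM in SMA. Eprs TE also fell by 0.24 (± 0.08 SE; limma, adjusted p = 1), with SMA higher than control in total RNA and overlapping it in polysomal RNA. Leaving out a replicate number gave between 0 and 3 called members. The Qars call was lost without control number 2 (-0.12) or SMA number 1, 2 or 3 (-0.26, -0.26 and -0.22), and the Eprs call without control number 1 (-0.20) or SMA number 2 (-0.23).

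Whether the SMA change itself differed between the stages was tested as the interaction of stage and genotype within each fraction. In total RNA 1 of 36 members was called, Mars, against 4.55% of all tested genes called higher and 5.6% called lower (10.1% in either direction), with the SMA change 0.38 ± 0.16 higher at day 7 than at day 5 on the log2 scale (SE; limma, adjusted p = 0.486). Its early total values were 20.06 and 22.25 FPKM in control against 17.19 and 22.14 FPKM in SMA, which overlapped, while the late genotypes did not overlap. Without early SMA library 1 the difference was 0.20 and was not called, and in all the call was lost when any 1 of 7 of the 10 libraries was left out (0.20 to 0.41).

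In polysomal RNA 3 members had a higher SMA change at day 7 and 1 a lower one, against 6.81% of all tested genes called higher and 6.86% called lower (13.7% in either direction). Rars2 differed by 0.41 ± 0.12 (SE; limma, adjusted p = 0.298). It was 18.12 and 19.25 FPKM in control against 14.61 and 16.92 FPKM in SMA at day 5, and 18.09, 17.07 and 16.36 FPKM against 19.98, 19.84 and 17.93 FPKM at day 7, so the SMA values were the lower at day 5 and mostly the higher at day 7. Mars differed by 0.29 ± 0.12, Yars by 0.28 ± 0.11 and Qars by -0.29 ± 0.10 (SE). Without early control polysomal library 1 these 3 differences were 0.18, 0.15 and -0.28 and were not called, and Rars2 kept its call without any single library. With a correction for transcript length Rars2 differed by 0.26 and was not called. The count also moved without early control polysomal library 2, and the share of all tested genes called in that fit is not given. None of the members passed after adjustment in either fraction, as 0.125% of all tested genes did in total and 0.597% in polysomal RNA. The median difference was 0.15 for cytosolic members, 0.29 for all 16 mitochondrial members and 0.01 for all tested genes, and without early control polysomal library 1 it was 0.00 and 0.07 for the cytosolic and mitochondrial members.

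The proteins around the synthetases were given by a list of 17 genes, with the scaffold proteins of the multisynthetase complex, editing factors and subunits of the mitochondrial glutamyl amidotransferase. In early SMA total RNA 2 of 17 were lower and 0 higher, against 3.89% of all tested genes called lower and 4.36% called higher. They were the scaffold Aimp2 (-0.30 ± 0.07 SE), at 28.45 and 27.87 FPKM in control against 21.96 and 23.74 FPKM in SMA, and the scaffold Eef1e1 (-0.25 ± 0.05 SE), at 59.76 and 61.38 against 51.20 and 50.36 FPKM. Aimp2 was lower in early polysomal RNA too (-0.37 ± 0.12 SE). In late total RNA 1 of 17, Gatb, was lower (-0.31 ± 0.08 SE), beside 4.7% of all tested genes called lower, and in late polysomal RNA Dtd2 (0.25) and Aarsd1 (0.12) were higher. The list's median was -0.13 in early total and -0.24 in early polysomal RNA, 0.04 in late total and -0.04 in late polysomal RNA, and 0 passed after adjustment in any of the 4. Gatb kept its call without any single library. The calls of Aimp2 and Eef1e1 in early total RNA were lost without either control library (-0.29 and -0.32 for Aimp2, -0.27 and -0.23 for Eef1e1). Those of Aimp2 in early polysomal RNA (-0.25 to -0.42) and of Dtd2 (0.20 to 0.24) and Aarsd1 (0.08 to 0.13) in late polysomal RNA were lost without several libraries.

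Mitochondrial translation was given by a list of 18 genes, among them translation factors and enzymes that process or modify mitochondrial transfer RNAs, which has 19 rows in the table because Mtif3 has 2. With genotype, 1 of 19 rows was called in each stage and fraction, against 8.25% (early total), 12.5% (early polysomal), 9.54% (late total) and 10.7% (late polysomal) of all tested genes. Trit1, a transfer RNA modifying enzyme, was higher in early total RNA (0.28) and Gtpbp3, another one, lower in early polysomal RNA (-0.45). The Trit1 call was lost without any 1 of the 4 libraries (0.27 to 0.29) and that of Gtpbp3 without 3 of the 4 (-0.30 to -0.50). Gfm2, a factor that recycles mitochondrial ribosomes, was lower in both late fractions, at 11.62, 8.92 and 9.63 FPKM in control against 7.43, 8.40 and 7.57 FPKM in SMA total RNA (-0.36 ± 0.12 SE), and at 9.58, 9.13 and 9.20 against 8.17, 7.63 and 7.24 FPKM in polysomal RNA (-0.27 ± 0.07 SE). The polysomal call was kept without any single library, and the total one was lost without 4 of the 6 (-0.25 to -0.38). From day 5 to day 7 every called row of this list was lower, with 9 of 19 rows lower and 0 higher in control total RNA (median -0.35), 11 and 0 in SMA total RNA (-0.33), 12 and 0 in control polysomal RNA (-0.38) and 9 and 0 in SMA polysomal RNA (-0.32). In the same order 19.1%, 21.9%, 26% and 19.4% of all tested genes were called lower.

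The ATF4 and amino acid response list held 27 genes, 23 of them tested. In late total RNA 6 of 23 were higher in SMA and 0 lower, and in late polysomal RNA 7 were higher and 0 lower, with medians of 0.13 and 0.14. The shares of all tested genes called higher were 4.84% and 5.35%, and the list was chosen with such results known. Chac1, an enzyme that degrades glutathione, was 3.47, 4.03 and 3.56 FPKM in control against 4.93, 6.22 and 8.27 FPKM in SMA total RNA (0.77 ± 0.20 SE), and 4.04, 3.26 and 3.46 against 5.77, 6.23 and 7.92 FPKM in polysomal RNA (0.86 ± 0.16 SE). Asns, asparagine synthetase, was 59.53, 56.12 and 55.89 FPKM in control against 66.48, 70.22 and 79.80 FPKM in SMA total RNA (0.33 ± 0.08 SE). In polysomal RNA its genotypes overlapped, at 93.74, 68.72 and 70.25 FPKM in control against 76.11, 87.52 and 92.86 FPKM in SMA. Pycr1, of proline synthesis (0.63 total, 0.64 polysomal), and the factor Atf5 (0.30 and 0.31) were higher in both fractions, and Mthfd2, of mitochondrial folate metabolism, in polysomal RNA (0.46). None passed after limma's adjustment (adjusted p = 0.214 to 0.422 for those named). Chac1 in both fractions and Asns in total RNA kept their call when any single library was left out. Pycr1 and Atf5 lost theirs in each fraction without 2 or more of the single libraries, and Mthfd2 without 5 of the 6, with log2 changes of 0.56 to 0.62, 0.24 to 0.30 and 0.32 to 0.49 in those fits.

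At day 5 the same list had 0 of 23 called in total RNA, against 8.25% of all tested genes, and 2 higher in polysomal RNA, against 5.65% called higher. They were Pycr1 (0.65 ± 0.14 SE; lost without control library 2, 0.57, or SMA library 2, 0.56) and the amino acid transporter Slc7a5, which was listed at 0 in both early control polysomal libraries, as Tubb3 was, so no fold is given. Chac1 was 3.06 and 3.29 FPKM in early control and 3.41 and 3.71 FPKM in early SMA total RNA.

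The 5 members with the motif were not all called in late SMA brains. Gars was called higher in both fractions and Yars in polysomal RNA. The log2 change of Aars was 0.25 in total and 0.18 in polysomal RNA, of Iars 0.05 and 0.08, and of Tars -0.03 and -0.07, and none of these was called. Mars, which was called higher in both fractions and had a window, held no match to the letters searched.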

How the data were processed

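RNA from 20 mouse brain samples was sequenced after ribosomal RNA depletion and stranded library preparation, as total cytoplasmic RNA (all gradient fractions pooled) or as polysomal RNA. The authors aligned reads with TopHat 2.0.14 to GRCm38.p4 and computed the deposited FPKM with Cufflinks 2.2.1 at default settings. FPKM is scaled per library and gene length and keeps no depth. Values of 1 table with 20 columns were used, and 0 columns were left out.

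From these values, log2(FPKM + 0.1) was computed for the 15247 rows whose mean reached 1 FPKM. Changes are on that scale, which understates those of low genes. Linear models were fitted with limma 3.58.1 (R 4.3.3, trended empirical Bayes) across all these genes, within a fraction and stage for SMA against control, within a stage for polysomal against total RNA and TE (interaction of genotype and fraction), and within a fraction for day 7 against day 5 and its interaction with genotype. Members were called at an unadjusted two-sided p under 0.05, and Benjamini-Hochberg adjustment ran over all 15247 genes. The scripts were tested on simulated data. Exact permutation tests of single genes were not run, since 3 against 3 libraries cannot reach 0.05. The sources used here do not say whether replicates came from separate mice, so p-values measure only the spread between these libraries, which may be technical.

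The members, gene lists (partners, mitochondrial translation, ATF4, cell markers) and tests were chosen with earlier results of these data known. Named members were, per comparison and direction, up to 8 of largest change among those called whose groups did not overlap, with Gars, Kars, Eprs and Lars2, and the 3 highest and 3 lowest of each class. Of a list of 9 ribosomal RNA loci 3 were tested, and mt-Rnr1 alone was called with genotype, in late polysomal RNA. Promoters came from RefSeq (GRCm38.p6) and transcripts from Gencode M21. 9 members had no promoter window here (Cars, Hars, Lars, Nars, Rars, Vars, Wars, Hars2 and Pars2). Some items of the gene list of partners and of the promoter matches are not reported here.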

Additional observations from a re-analysis of the deposited data

Results flagged for a closer look

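Among the 36 members, 7 differences between groups passed the unadjusted test of the difference itself, and none of the 7 passed limma's adjustment over all tested genes. They were 2 for late TE, beside 2.07% of all tested genes called, and 0 for early TE, beside 2.32%. For the interaction of stage and genotype they were 1 in total RNA, beside 10.1%, and 4 in polysomal RNA, beside 13.7%. The change of TE with genotype at day 7 was -0.24 for Eprs and -0.24 for Qars on the log2 scale, so that for each the SMA effect differed between polysomal and total RNA. The SMA effect differed between day 7 and day 5 in total RNA for Mars (0.38), and in polysomal RNA for Mars (0.29), Yars (0.28), Rars2 (0.41) and Qars (-0.29). Of these, Rars2 alone kept its call when any single library, or for TE any 1 number in both fractions, was left out. Rars2 lost its call with a correction for transcript length (0.26).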

How the results depend on the processing

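Leaving out a library gave the following lowest and highest counts: 0 and 9 for SMA against control in early total RNA, 0 and 9 in early polysomal RNA, 2 and 8 in late total RNA and 2 and 6 in late polysomal RNA. They were 0 and 2 for early TE, 0 and 3 for late TE, and 0 and 6 (total RNA) and 2 and 16 (polysomal RNA) for the interaction of stage and genotype. For polysomal against total RNA they were 3 and 14 in early controls, 2 and 3 in early SMA, 10 and 12 in late controls and 9 and 15 in late SMA brains. For day 7 against day 5 they were 7 and 11 in control total, 6 and 13 in SMA total, 16 and 25 in control polysomal and 5 and 11 in SMA polysomal RNA.

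Among the other alternatives, SMA against control in early total RNA gave 1 called member without a filter, with only genes above 0 in every library, with rescaled medians, with quantile normalization, without a trend and with 1 model over all 20 libraries. In early polysomal RNA the count was 2 with only genes above 0 in every library, 1 with rescaled medians, quantile normalization or a correction for transcript length, and 6 with 1 model. In late total RNA it was 6 without a filter, 5 without a trend and 5 with 1 model, and in late polysomal RNA 3 with 1 model. With 1 model, TE gave 1 call at day 5 and 0 at day 7. The interaction of stage and genotype gave 2 calls in total RNA without a filter or with 1 model and 0 with the length correction or without a trend, and in polysomal RNA 2 with the length correction. Polysomal against total RNA in early SMA brains gave 8 calls with rescaled medians and 9 with 1 model.

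With limma's adjusted p the counts were 0 for all SMA, TE and interaction comparisons and both early fraction comparisons, 7 for the late control fractions, and 7, 7, 15 and 6 for day 7 against day 5 in control total, SMA total, control polysomal and SMA polysomal RNA. Of 114 named changes 0 reversed and 31 stayed past the threshold under every alternative.

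The labels do not say whether libraries of 1 number come from the same brain, and the main tests did not take replicate numbers as pairing. Deviations from the group means correlated at -0.04 to 0.11 between fractions and at -0.09 to 0.03 between genotypes, which does not settle it. With the replicate number as a block, 1 member was called in early total, 2 in early polysomal RNA, 1 for early TE, 1 for late TE and 2 for the interaction in total RNA. The depth behind an FPKM value is unknown.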
